A study of Homo sapiens with 20 samples.

Results

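Chromatin accessibility was compared between LOVO cells carrying a short hairpin RNA against METTL3 and LOVO cells carrying a control hairpin, both under olaparib. The comparison rests on 2 of the 10 deposited ATAC-seq interval lists, which were chosen by their group names and not by any measured value. The list of shControl cells with olaparib, used as the reference, held 32192 intervals, and the list of shMETTL3 cells with olaparib held 51462, together 83654 of the 292390 intervals in the series. LOVO is an established colon adenocarcinoma line. Each of these groups has 2 labelled samples and 1 list, 4 of the 20 samples in all, so no value below has a replicate error and no test between the conditions was possible. The same hairpins without olaparib, and the same design in RKO, a second colorectal cancer line, make up the rest of the series. The hairpin's sequence, how the cells were made or selected, and the dose and duration of olaparib are not given in the sources used here.

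METTL3 is the catalytic subunit of the complex that writes N6-methyladenosine (m6A), a methyl mark on adenosines in RNA, and METTL14 and WTAP are its partners. Among the RNAs that carry m6A are transcripts of LINE1, a retrotransposon, and the series title sets the work in the context of LINE1 RNA and chromatin accessibility. Olaparib inhibits the poly(ADP-ribose) polymerases PARP1 and PARP2, which mark DNA breaks, and cells that cannot repair breaks by homologous recombination are sensitive to it. In ATAC-seq a transposase cuts accessible DNA, so that an interval marks a stretch of open chromatin, typically a promoter or an enhancer.

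A total of 30052 shControl intervals were kept, meaning that at least 1 bp overlapped an interval of the shMETTL3 list. This was 93.4% of the list (95% exact binomial interval 93.1 to 93.6%, for counting error only), and the other 2140 (6.65%) were lost. In the opposite direction 20825 of the shMETTL3 intervals (40.5%, interval 40.04 to 40.89%) had no shControl partner and are called gained. The covered length was 12.3 Mb in shControl and 16.8 Mb in shMETTL3. Within LOVO, untreated shControl is the only group with more than 1 list, and 76.1% of the intervals in the scored list of untreated shControl cells had a partner in the merged list of the same group, and 87.8% of the merged intervals had a partner in the scored list. Those lists differ in form, and 2 of the group's 4 samples are labelled as a second batch without a statement of which list holds them, so form, batch and spread cannot be told apart there. The same holds for every share below that uses the untreated shControl lists. With the shMETTL3 list cut to its 32192 highest-scoring intervals, 74.9% of shControl intervals were kept and 24.3% of shMETTL3 intervals were gained. Depth is not known from interval lists, and a list from deeper libraries holds more intervals, so a missing interval does not show closed chromatin.

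Gained intervals were narrow and low in score. The score is the value the authors deposited with each interval, whose definition is not stated. The median gained interval was 177 bp wide with a score of 6.82, against 370 bp and 11.2 for shMETTL3 intervals that lay on a shControl interval. Lost intervals had a median width of 201 bp and a score of 5.32, against 346 bp and 8.78 for kept ones. The gained share was 85.6% among shMETTL3 intervals under 150 bp and 1.29% among those of 600 bp or more. Gained intervals were mostly not flanks of known ones, since their median distance to the nearest shControl interval was 17395 bp and 6.71% lay within 500 bp of one. For lost intervals the median distance to the nearest shMETTL3 interval was 9489 bp, and 14.8% lay within 500 bp of one.

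Gene starts changed less than other places. A gene start here is the stretch within 1000 bp of an annotated start, or of either end for genes whose strand the reference did not give. At gene starts 96.4% of shControl intervals were kept and 19.2% of shMETTL3 intervals were gained, against 91.8% and 47.9% elsewhere. Within gene bodies and between genes the gained shares were close to each other, at 48.2% and 47.6%. Of the gained intervals 12.3% lay at gene starts, compared with 34.9% of kept shControl intervals and 18.1% of lost ones. The difference by place was present within each of 10 equal classes of shMETTL3 score. In the highest class 1.12% of intervals at gene starts and 6.26% of those elsewhere were gained. For the kept share the order was reversed in classes 8 and 9 of the 10 by shControl score (10 the highest). There 99.4% and 99.3% were kept at gene starts, against 99.5% and 99.8% elsewhere. Width was not held equal: uniquely paired shControl intervals had a median of 460 bp at gene starts and 296 bp elsewhere.

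**Figure D1:**
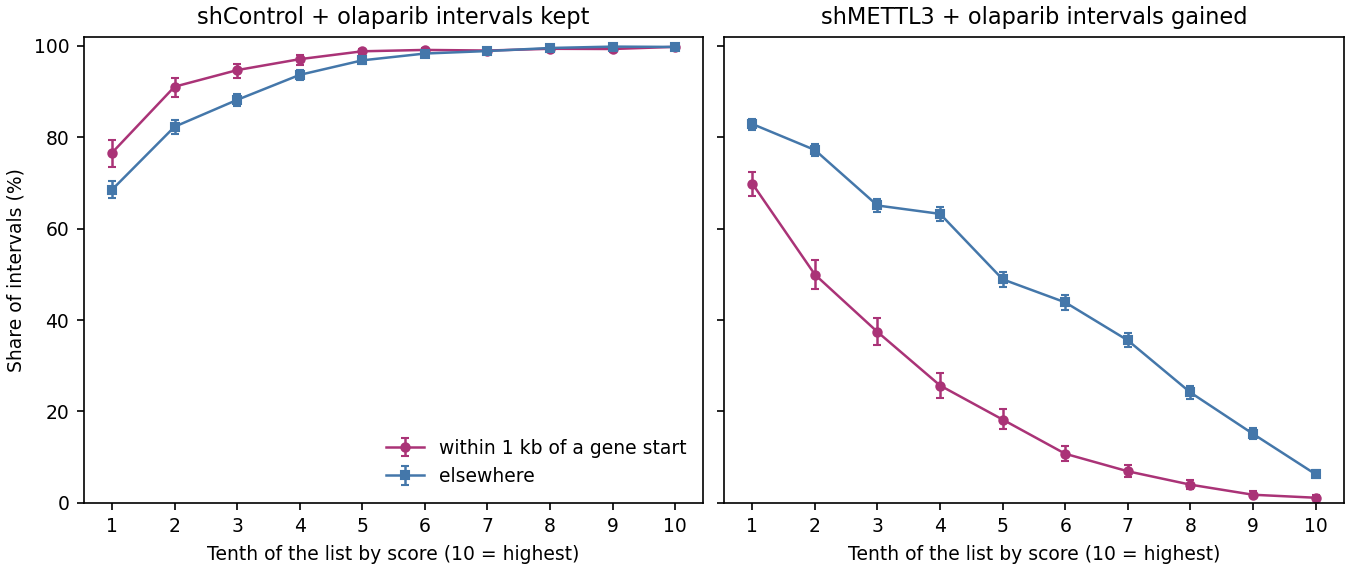
Share of intervals (%) kept from the shControl list (left) and gained in the shMETTL3 list (right), by 10 equal classes of each list's score, with 95% exact binomial intervals, for intervals within 1000 bp of a gene start (circles) and elsewhere (squares). The gained share is lower at gene starts in each class and ends at 1.12% against 6.26% in the highest.

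Many of the gained intervals were open in LOVO cells without the knockdown and without the drug. Of the 20825 gained intervals, 50.2% overlapped an interval of either untreated shControl list and 20.7% overlapped both lists. Only 4.69% overlapped the list of untreated shMETTL3 cells, which was the shortest LOVO list with 16417 intervals, and 38.3% overlapped none of the 8 other lists. Lost intervals showed a like pattern, with 62.7% in either untreated shControl list, 3.50% in untreated shMETTL3 and 26.4% in no other list. Of the kept intervals 96.8%, 52.2% and 2.10% did so. The share of gained intervals open in either untreated shControl list was 31.2% in the lowest of 5 equal classes of their scores and 73.6% in the highest. At gene starts it was 65.6% and elsewhere 48.0%.

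**Figure D2:**
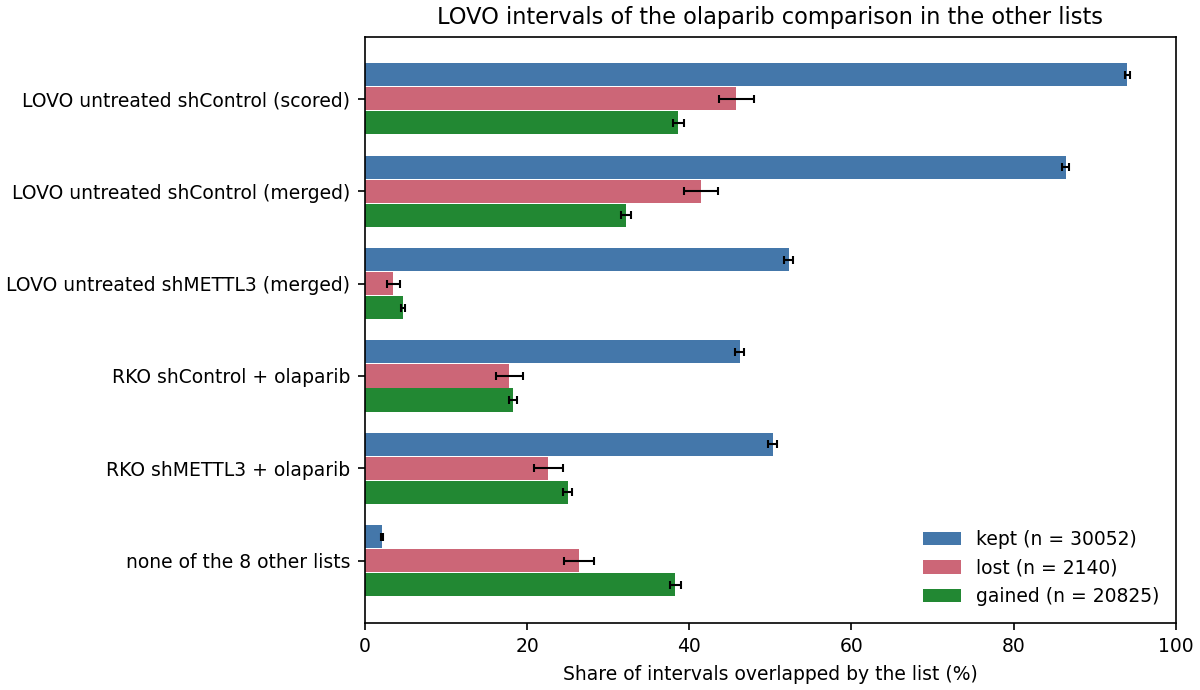
Share (%) of kept, lost and gained LOVO intervals overlapped by each list named on the vertical axis, with 95% exact binomial intervals. Gained and lost intervals are overlapped by the untreated shMETTL3 list in 4.69% and 3.50% of cases, and kept intervals in 52.2%.

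The highest-scoring gained interval lay at chr15:67840041-67840401 (hg38), 14532 bp from the nearest end or start of SKOR1, with a score of 32.9. It overlapped 2 of the 3 other LOVO lists and all 5 RKO lists. The next lay within SPTLC3, a subunit of serine palmitoyltransferase, 1631 bp from the nearest end or start of that gene (chr20:13167312-13167472, score 29.9). Others of the 10 highest lay nearest to GCNT1, SYT14, AGA, SASH1, HBP1, ETNK1, CHCHD4 and CHCHD3, with scores of 28 down to 24.4. The one nearest to HBP1, at chr7:107318614-107318853 with a score of 25.4, was in no other list, and its distance to that gene's start was 148690 bp. Among the 10 highest-scoring lost intervals, the top one lay 74 bp from a start of DBI, the acyl-CoA binding protein (chr2:119367509-119367640, score 16.3, 132 bp wide), and was present in all 8 other lists. The others were nearest to PAX8, LHFPL4, PRRT3, BIRC3, TNFRSF19, OSBPL8, ITPR2, MTMR4 and C15orf40, with scores from 14.7 to 13.3. Every one of the 10 overlapped at least 1 of the 3 other LOVO lists. The lost interval at TNFRSF19 (chr13:23578769-23578929) had a shMETTL3 interval close by (chr13:23579076-23579680, score 16.7), and that gene counted as open in both lists.

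Promoter sequences are shown for starts that an interval present in 1 list only overlapped, because they are the DNA whose state the lists disagree on. The sequences are from RefSeq (GRCh38.p14), run 5′ to 3′ from 250 bases before to 50 bases after the start, and carry capitals where the gained or lost interval lay. SCEL encodes sciellin, an epithelial cornified envelope protein, and FGD4 encodes an activator of the small GTPase CDC42. Their gained intervals scored 21.3 and 21.1. ABCC2 encodes the efflux transporter MRP2 (score 13.6). IFIT1, an interferon-induced RNA-binding protein, scored 9.35. CCN2, a target of the co-activator YAP and the TEAD transcription factors, scored 8.04. KLF4, a zinc finger transcription factor, scored 6.63, and FANCM, the translocase of the Fanconi anaemia core complex, scored 4.15. The last pair of sequences belongs to lost intervals, at a start of SHC4, a signalling adaptor (score 9.04), and at a start of NEIL1, a DNA glycosylase of base excision repair (score 5.04).
SCEL, chr13:77535456-77535755, plus strand, gained: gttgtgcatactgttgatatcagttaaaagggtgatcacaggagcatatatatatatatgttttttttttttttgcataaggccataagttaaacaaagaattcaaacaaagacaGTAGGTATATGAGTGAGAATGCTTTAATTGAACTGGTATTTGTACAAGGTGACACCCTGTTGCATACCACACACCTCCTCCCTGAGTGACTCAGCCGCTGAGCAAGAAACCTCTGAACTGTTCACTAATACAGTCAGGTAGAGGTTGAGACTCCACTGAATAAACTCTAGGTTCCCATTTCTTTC
FGD4, chr12:32534072-32534371, plus strand, gained: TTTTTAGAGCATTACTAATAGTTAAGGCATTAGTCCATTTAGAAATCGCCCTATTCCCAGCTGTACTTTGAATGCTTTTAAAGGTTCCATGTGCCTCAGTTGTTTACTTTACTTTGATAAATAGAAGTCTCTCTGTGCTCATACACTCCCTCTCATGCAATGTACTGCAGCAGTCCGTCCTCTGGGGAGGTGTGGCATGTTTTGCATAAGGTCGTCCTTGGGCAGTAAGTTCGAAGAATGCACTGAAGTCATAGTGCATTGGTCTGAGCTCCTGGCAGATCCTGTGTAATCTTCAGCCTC
ABCC2, chr10:99782390-99782689, plus strand, gained: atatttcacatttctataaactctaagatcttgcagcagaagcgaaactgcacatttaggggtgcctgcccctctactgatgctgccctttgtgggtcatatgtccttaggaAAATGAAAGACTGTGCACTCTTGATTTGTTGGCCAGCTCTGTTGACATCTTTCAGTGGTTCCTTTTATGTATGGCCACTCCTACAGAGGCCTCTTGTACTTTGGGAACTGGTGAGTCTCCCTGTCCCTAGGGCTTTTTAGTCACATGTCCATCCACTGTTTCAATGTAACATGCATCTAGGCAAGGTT
IFIT1, chr10:89392373-89392672, plus strand, gained: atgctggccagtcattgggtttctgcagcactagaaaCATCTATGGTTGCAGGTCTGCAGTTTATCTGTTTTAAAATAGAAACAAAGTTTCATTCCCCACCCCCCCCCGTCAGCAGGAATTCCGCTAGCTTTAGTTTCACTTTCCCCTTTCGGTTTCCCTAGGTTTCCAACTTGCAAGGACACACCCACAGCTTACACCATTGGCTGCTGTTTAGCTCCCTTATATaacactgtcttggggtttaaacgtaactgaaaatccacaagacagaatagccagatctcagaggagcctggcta
CCN2, chr6:131951323-131951622, minus strand, gained: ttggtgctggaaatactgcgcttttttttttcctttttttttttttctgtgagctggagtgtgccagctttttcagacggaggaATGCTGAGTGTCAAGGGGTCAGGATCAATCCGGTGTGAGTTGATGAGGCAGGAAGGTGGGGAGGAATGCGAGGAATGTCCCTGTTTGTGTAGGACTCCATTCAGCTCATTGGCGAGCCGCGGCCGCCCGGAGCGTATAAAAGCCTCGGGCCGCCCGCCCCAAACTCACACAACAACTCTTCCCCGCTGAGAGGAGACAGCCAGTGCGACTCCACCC
KLF4, chr9:107489720-107490019, minus strand, gained: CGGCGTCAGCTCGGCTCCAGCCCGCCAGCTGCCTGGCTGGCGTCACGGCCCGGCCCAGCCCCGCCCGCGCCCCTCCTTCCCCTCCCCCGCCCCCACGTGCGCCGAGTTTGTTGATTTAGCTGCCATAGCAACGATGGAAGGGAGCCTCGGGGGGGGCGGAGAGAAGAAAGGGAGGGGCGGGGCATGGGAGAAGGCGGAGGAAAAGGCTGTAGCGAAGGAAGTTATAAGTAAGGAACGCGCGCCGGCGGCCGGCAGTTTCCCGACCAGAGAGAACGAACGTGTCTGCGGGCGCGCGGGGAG
FANCM, chr14:45135680-45135979, plus strand, gained: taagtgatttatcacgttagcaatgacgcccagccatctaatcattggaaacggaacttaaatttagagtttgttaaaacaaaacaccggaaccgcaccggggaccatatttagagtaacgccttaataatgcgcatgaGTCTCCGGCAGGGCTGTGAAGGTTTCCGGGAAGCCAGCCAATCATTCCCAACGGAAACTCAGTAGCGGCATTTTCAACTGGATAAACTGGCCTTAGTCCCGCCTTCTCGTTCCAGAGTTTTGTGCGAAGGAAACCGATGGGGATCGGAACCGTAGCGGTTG
SHC4, chr15:48963870-48964169, minus strand, lost: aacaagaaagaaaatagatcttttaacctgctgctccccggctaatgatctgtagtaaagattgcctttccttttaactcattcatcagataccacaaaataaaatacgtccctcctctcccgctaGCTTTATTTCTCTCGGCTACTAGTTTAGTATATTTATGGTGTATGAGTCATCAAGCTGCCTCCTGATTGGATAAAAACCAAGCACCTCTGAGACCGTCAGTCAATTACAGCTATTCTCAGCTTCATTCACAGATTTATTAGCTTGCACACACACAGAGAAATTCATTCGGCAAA
NEIL1, chr15:75347369-75347668, plus strand, lost: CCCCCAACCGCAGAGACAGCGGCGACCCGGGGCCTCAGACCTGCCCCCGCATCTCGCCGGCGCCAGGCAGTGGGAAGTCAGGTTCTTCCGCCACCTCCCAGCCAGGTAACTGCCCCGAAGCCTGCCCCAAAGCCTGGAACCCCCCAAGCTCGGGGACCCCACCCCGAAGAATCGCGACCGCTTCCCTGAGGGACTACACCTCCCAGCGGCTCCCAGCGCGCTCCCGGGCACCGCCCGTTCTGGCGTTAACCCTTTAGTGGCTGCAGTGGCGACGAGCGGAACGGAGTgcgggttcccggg

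These promoters differed widely in base composition. The KLF4 promoter was 69% G and C with 33 CpG dinucleotides, and the NEIL1 promoter was 70% with 28. By contrast SCEL had 38.3% and 1 CpG, ABCC2 45% and 1, and IFIT1 46% and 4. The AP-1 letters TGANTCA were found under the interval in SCEL and in SHC4, the CCAAT letters bound by NF-Y under it in FGD4, IFIT1, CCN2, FANCM and SHC4, and the TATAAA letters under it in CCN2. A match of letters on either strand is a description and not a binding site.

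Across 22175 annotated promoters of 15842 genes, gained promoters lay between kept and closed ones in composition. The median GC content was 66% in 11376 kept promoters, 63.3% in 1293 gained, 65.7% in 183 lost and 55.3% in 9323 closed in both lists. The median number of CpG dinucleotides was 27, 21, 22 and 7. The ETS letters CCGGAAGT stood in 9.14% of kept, 3.48% of gained and 0.998% of closed promoters, against 5.33% of all promoters. YY1 letters (ATGGCGGC) stood in 6.30%, 3.63% and 1.01%, and NRF1 letters (GCGCATGC) in 5.51%, 3.71% and 1.61%, against 3.90% and 3.74% of all. The order was the opposite for TATAAA, with 4.70% of kept, 8.82% of gained and 15.4% of closed promoters, and for TGANTCA, with 4.40%, 7.35% and 8.10%, against 9.47% and 6.14% of all. GC-box letters bound by SP and KLF factors (GGGGCGGGG) stood in 27.5% of kept and 27.1% of gained promoters, against 20.6% of all. CCAAT was found in 37.3% of kept, 26.8% of gained and 32.9% of closed promoters, against 34.7% of all. The TCF and LEF letters CTTTGAA were found in 2.29% of kept, 2.94% of gained and 5.27% of closed promoters and in 11 of the lost ones (6.01%), against 3.61% of all.

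Among intervals present in both lists, the strength order was largely shared, and gene starts ranked slightly lower after knockdown. Because scores of separate lists have no common scale, each of the 28917 intervals with a unique partner was given its rank percentile among these pairs in each list, and the change is shMETTL3 minus shControl in percentile points. Across these intervals, which are not independent replicates, Spearman's rho of the scores was 0.743. The median change was -3.38 at 9759 gene-start intervals and 0.69 at the 19158 others. Of the gene-start intervals 8.31% ranked at least 20 points higher and 16.2% at least 20 points lower, against 18.4% and 14.2% elsewhere. Within each of 5 equal classes of shControl rank the gene-start median was the lower of the pair, at 2.86 against 8.86 in the lowest and -5.44 against -3.22 in the highest. Shared intervals were wider in shMETTL3 in 65.1% of pairs, with medians of 341 bp in shControl and 374 bp in shMETTL3.

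**Figure D3:**
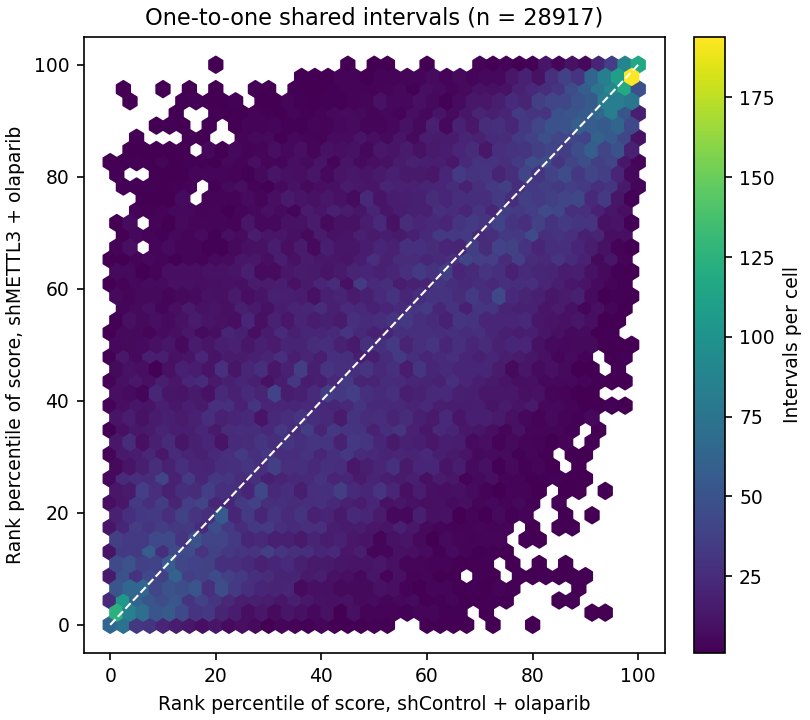
Rank percentile of the score in shMETTL3 with olaparib (vertical) against shControl with olaparib (horizontal) for 28917 uniquely paired intervals, with colour for the number of intervals per cell and a dashed line at equal rank. Most intervals lie near the line, and Spearman's rho was 0.743.

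Among intervals of at least 200 bp in both lists, the largest rises in rank were mostly away from gene starts. An interval 113159 bp from EPDR1 moved from a score of 4.59 to 17.9, a change of 82.7 points, and an interval within PARD3B, a cell polarity gene, moved from 5.13 to 18.8. An interval 11476 bp from FANCC, a Fanconi anaemia core protein, moved from 4.59 to 17.2, a change of 79.8 points. Of the 10 largest rises 1 lay at a gene start, that of KLHL7, an adaptor of a ubiquitin ligase (3.95 to 16). The largest fall among them, of 83.7 points downward, was 774 bp from a start of ATG2A, a lipid transfer protein of autophagy (13.9 to 5.64). An interval in a gene body, 18951 bp from the nearest listed start or end of ATF3, moved from 13.4 to 5.49. ATF3 is a stress-induced transcription factor of the AP-1 and CREB class. The start interval of PLEKHA3 moved from 13 to 5.35. Of the 10 largest falls 4 lay at gene starts, the others being those of CDK10, a cyclin-dependent kinase (12.9 to 6.18), and CCDC107 (14.7 to 7.78).

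Seen by gene, 10832 of 20037 protein-coding genes (54.1%) were open in shControl and 11848 (59.1%) in shMETTL3. Of the genes open in shControl 148 (1.37%) were lost, and of the 9205 closed there 1164 (12.6%) were gained. Cutting the shMETTL3 list to the shControl number of intervals turned this balance over, with 1638 genes lost and 355 gained. Of the gained genes 63.2% were open in either untreated shControl list and 5.50% in untreated shMETTL3, and 18.2% were open in none of the other lists. Of the lost genes 60.8% were open in either untreated shControl list and 4.73% in untreated shMETTL3. The same 2 shares were 98.8% and 67.6% for kept genes, and 2.74% and 0.07% for genes closed in both olaparib lists.

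METTL3 itself was open in all 10 lists. Its start interval spanned chr14:21511099-21511570 with a score of 16.3 in shControl and chr14:21511033-21511604 with 20.3 in shMETTL3, and its rank moved by -3.0 points. Accessibility at the gene's start does not measure its RNA, on which a hairpin acts, so the knockdown itself was not checked by these data. The cells' labelled identity was checked on 31 intestinal genes, of which 20 were open in shControl and 24 in shMETTL3. CDX2, HNF4A, EPCAM and LGALS4 were open in both, while CDH1, KRT20 and CLDN7 were open in shMETTL3 only. Mesenchymal markers were open for 6 of 20 genes in shControl, leukocyte markers for 2 of 14 and neuronal markers for 3 of 12. In shMETTL3 a further 2 leukocyte markers (LYZ and CD3E) and 1 neuronal marker (SNAP25) were open. Of the mesenchymal markers 1 was gained (VIM) and 1 lost (COL1A1). Over all genes 12.6% of those closed in shControl were gained and 1.37% of those open were lost. The markers PTPRC, MS4A1 and RBFOX3 had no start interval in either list.

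Over 21 lists with 541 genes of DNA repair, RNA methylation, chromatin and cell identity, 444 were open in shControl. Of these 5 were lost (NEIL1, SUZ12, AXIN1, BATF3 and COL1A1), beside the 1.37% over all genes, and of the 97 closed ones 30 were gained, beside 12.6%. A further 67 were closed in both. The shares of 1.37% and 12.6% are the background for lost and gained members in every list below. The 12.6% includes many genes open nowhere: of the 8041 genes closed in both lists 88.4% were open in none of the other lists. With the shMETTL3 list cut to the shControl number of intervals, 88 members were lost and 9 gained. Rank changes were available for the start intervals of 400 members, with a median of -4.63 against -3.81 over 10013 genes. Over all genes 3799 start intervals ranked higher and 6213 lower, against which the counts of higher and lower members below are to be read, and no difference between a list and all genes was tested. Of the 400 members 28 ranked at least 20 points higher and 70 at least 20 points lower, where over all genes 7.84% and 16.5% did so.

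**Figure D4:**
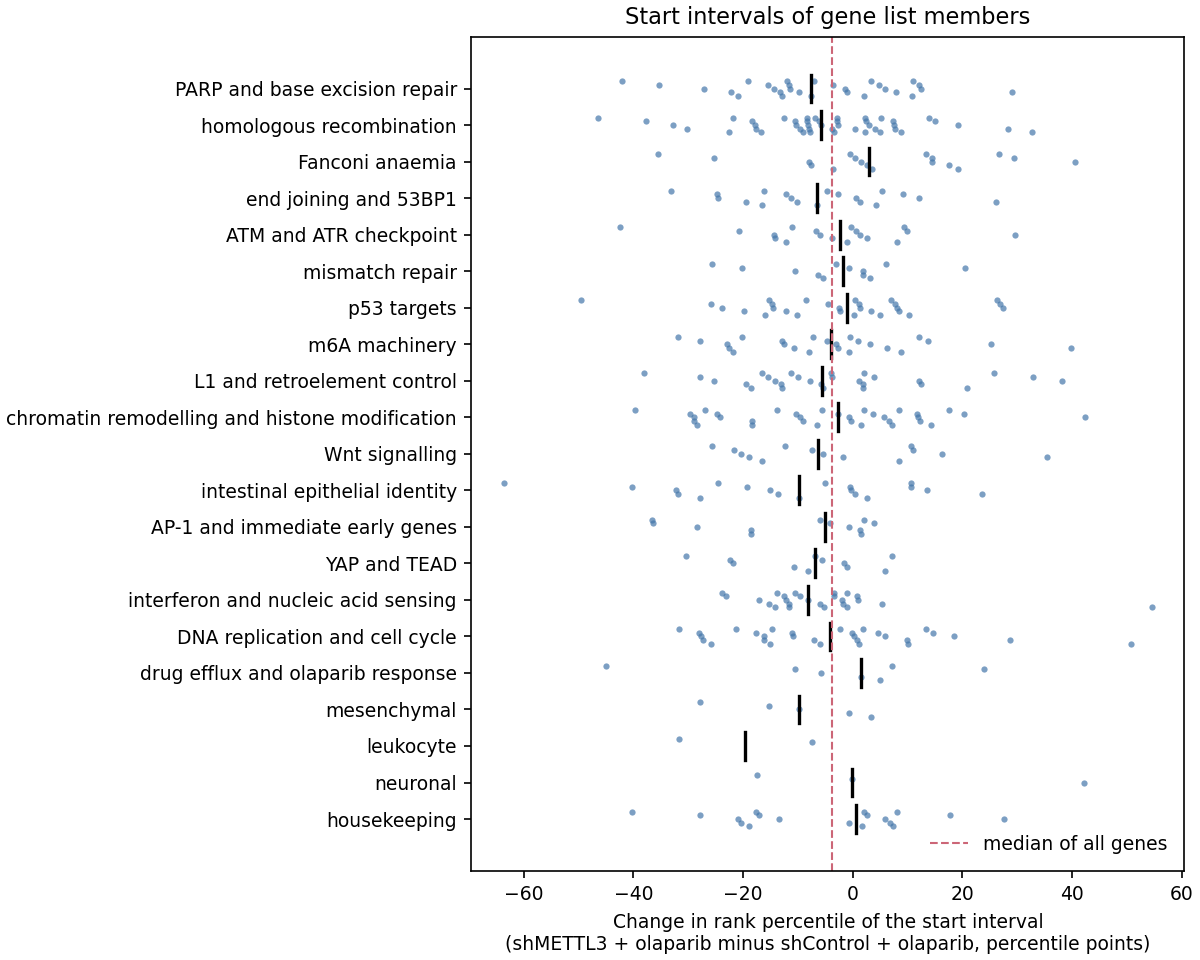
Change in rank percentile of the start interval (percentile points, shMETTL3 minus shControl, both with olaparib) for each member of 21 gene lists, with the list's median as a black bar and the median of all genes, -3.81, as a dashed line. The list medians lie on both sides of that line, and single members span -63.6 to 54.5.

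Genes of the pathway that olaparib blocks were mostly open in both lists. Of 37 genes of poly(ADP-ribose) metabolism and base excision repair 34 were open in shControl and 33 of these in shMETTL3. Over all genes 54.1% were open in shControl and 1.37% of those were lost. PARP1, the main target of olaparib, had a start interval scored 7.74 in shControl and 8.29 in shMETTL3, a rank change of -13.3, and PARP2 had 17 and 22.1, a change of -0.99. NEIL1, a glycosylase for oxidised bases, was the member lost, through a 381 bp interval scored 5.04 (chr15:75347275-75347655) that no other LOVO list held. PARP14, a mono(ADP-ribosyl) transferase, and MPG, the alkyladenine glycosylase, were gained with scores of 7.47 and 6.02. They were 2 of the 3 members closed in shControl, beside 12.6% gained over all closed genes. PARG, which removes poly(ADP-ribose), had no start interval in either list. UNG, the uracil glycosylase, ranked 29.0 points higher (8.97 to 16.3), and POLB, the repair polymerase of this pathway, moved by -42.1 (14 to 11), with APTX and LIG1 at -35.3 and -27.1.

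Homologous recombination genes were open in shControl for 47 of 52 members, and all 47 were open in shMETTL3, including all 9 of the BRCA1 and BRCA2 axis. With 1.37% lost over all genes, a count of 0 lost among 47 is near the background. RADX, a single-strand DNA binding protein of replication forks, was gained through a 130 bp interval scored 6.60, and 4 members were closed in both, SLX1A, SLX1B and RPA3 among them. Of 45 start intervals 28 ranked lower and 17 higher, with a median change of -5.70, beside 6213 lower and 3799 higher over all genes. XRCC2, a recombination mediator, moved by -32.7 (12 to 10.9). The largest downward move was that of DNA2, a nuclease and helicase of end resection (9.58 to 6.71, -46.4), and ZRANB3, a fork remodeller, moved by -37.6. FIGNL1, an ATPase that acts on recombination filaments, and RTEL1, a helicase that dismantles recombination intermediates, ranked 32.6 and 28.3 points higher (5.46 to 10.7 and 6.65 to 11.6).

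Fanconi anaemia genes act in the repair of interstrand crosslinks. Of 20 members 19 were open in both lists and FANCM was gained, with its 189 bp interval (chr14:45135819-45136007) found in no other LOVO list. Of 18 start intervals 12 ranked higher, with a median change of 2.99, beside 3799 of 10013 and -3.81 over all genes. FANCD2, which is ubiquitylated on damaged chromatin, ranked 40.5 points higher (7.93 to 16.1), FANCE 29.3 (5.85 to 10.7) and CENPX 26.7. FAAP20 moved by -35.6 (8.90 to 7.23) and FANCC by -25.2.

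Genes of the competing end-joining route and the checkpoints were also open in both lists, with 1 exception. In end joining and the 53BP1 pathway 20 of 21 members were open in both lists, and XRCC5, which encodes Ku80, was gained through a 111 bp interval scored 7.07. In BRCA1-deficient cells, loss of 53BP1 or its shieldin partners is a known route to olaparib resistance, which was not tested here. TP53BP1 ranked 9.17 points higher (12.8 to 20) and MAD2L2, the shieldin subunit also called REV7, 26.1 (7.30 to 12.4), while SHLD1 and the ubiquitin ligases RNF168 and RNF8 moved by -33.1, -24.7 and -24.5. All 22 ATM and ATR checkpoint genes were open in both lists. Among the kinases WEE1 stood at -42.4 (12.1 to 9.88), CHEK1 at -20.7, ATM at -14.3 and ATR at -11.2, and the ATR activator ETAA1 stood at 29.6 (9.41 to 17.7). All 13 mismatch repair genes were open in both lists, with MLH3 at -25.6 and RFC4 at 20.4. The absence of losses in lists of this size is near the 1.37% of open genes lost over all genes.

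Among 30 p53 targets 29 were open in both lists. BID, a pro-apoptotic protein and the 1 member closed in shControl, was gained with a score of 4.66. Over all genes 1.37% of open ones were lost and 12.6% of closed ones gained. MDM2, the ubiquitin ligase that degrades p53, ranked 27.3 points higher, SESN1 26.9 and SPATA18 26.3. The highest scores at MDM2, 7.26 in shControl and 12.5 in shMETTL3, belong to intervals that do not overlap each other. PLK3 moved by -49.5 (11 to 8.06), TP53INP1 by -25.8 and PHLDA3 by -23.9. Rank changes were split evenly, with 14 up and 14 down. In replication and the cell cycle 32 of 34 members were open in both lists. E2F1, a driver of S-phase genes, ranked 50.8 points higher (4.78 to 12.3) and BUB1, a mitotic checkpoint kinase, 28.7 (8.73 to 15.7). MCM6 and CDK6 moved by -27.7 and -28.0.

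The m6A machinery, of which METTL3 is a part, was open in 25 of 27 members in both lists. All 12 writer genes were among them, with METTL14 at 12.1 (11.7 to 18.4), ZCCHC4 at 25.3 and, lower, RBM15 at -31.8 (10.8 to 9.93), CBLL1 at -27.9 and WTAP at -22.5. Among the 13 readers FMR1, which encodes the RNA-binding protein FMRP, was gained (score 7.49), and 9 of 11 start intervals ranked lower, with YTHDF3 at -22.9 and YTHDF2 at -21.8. RBMX, which binds m6A-dependent RNA structures, ranked 39.8 points higher (5.4 to 11.5). Of the 25 open members 0 were lost and of the 2 closed ones 1 was gained, beside 1.37% and 12.6% over all genes.

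Genes that control LINE1 and other retroelements were open in 33 of 34 members in both lists and the other was closed in both, counts near the 1.37% lost and 12.6% gained over all genes. The HUSH complex and the methyltransferase SETDB1 silence such elements. ATF7IP, the partner of SETDB1, ranked 32.9 points higher (8.41 to 15.7) and MPHOSPH8, a HUSH subunit, 25.7 (10.5 to 20.3). Of the DNA methylation genes UHRF1, which recruits DNMT1, ranked 38.2 points higher (6.99 to 13.6), while DNMT1 stood at -25.4, TET2 at -27.9 and DNMT3B was closed in both. ZC3HAV1, an antiviral protein that restricts LINE1, moved by -38.1 (13.3 to 11.2). LINE1 copies themselves were not analysed here, since no repeat annotation was used.

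Chromatin regulators were open in 40 of 44 members in shControl. Of these 1 was lost and of the 4 closed ones 2 were gained, beside 1.37% and 12.6% over all genes. SUZ12, a core subunit of Polycomb repressive complex PRC2, was lost through a 203 bp interval scored 3.82, among the lowest scores of its list. ARID1A and ARID1B, subunits of the SWI/SNF remodeller, were gained with scores of 5.01 and 3.81. HDAC1, a histone deacetylase, ranked 42.4 points higher (7.44 to 15.3) and SMARCA4, the SWI/SNF ATPase, 20.3 (5.69 to 9.41). JARID2, a PRC2 partner, stood at -39.7 (10.5 to 8.69), SMARCE1 at -29.7 and KMT2D at -28.9.

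Of the Wnt genes 2 of 9 closed in shControl were gained, and of the intestinal genes 4 of 11, beside 12.6% over all closed genes. LGR5, an R-spondin receptor and stem cell marker of the gut, had no interval in shControl and 2 in shMETTL3, the stronger scored 8.79 (chr12:71439522-71439864), and both untreated shControl lists were open there. CCND1, which encodes cyclin D1, was gained with a score of 8.14 (chr11:69640985-69641329). AXIN1, a scaffold of the β-catenin destruction complex, was lost through a 171 bp interval scored 5.84 (chr16:353116-353286). TCF7, a Wnt transcription factor, ranked 35.5 points higher (7.80 to 14.8) and CTNNB1, which encodes β-catenin, stood at -21.6. Of the 31 intestinal genes 4 were gained: CDH1 (E-cadherin, score 8.41), KRT20 (5.47), CLDN7 (3.90) and CDX1 (8.86). The CDX1 interval lay beyond the right-hand end of a gene whose strand the reference does not give, so it is not placed at the start. VIL1, the microvillus protein villin, had the lowest change of any list member, at -63.6 (13.3 to 8.14), and the transcription factor HNF4A stood at -32.2, while FOXA2 stood at 23.5.

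**Figure D5:**
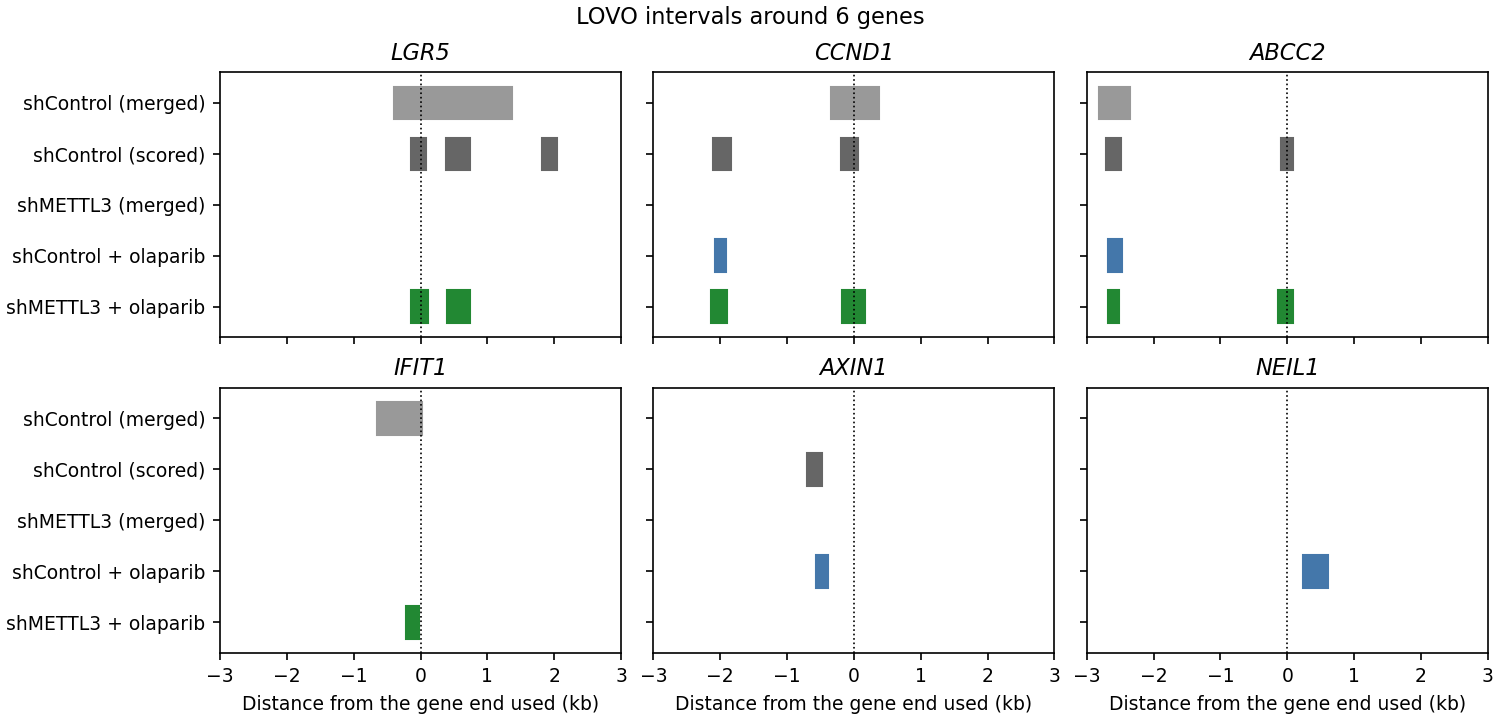
Intervals of the 5 LOVO lists (rows) around 6 genes, drawn by distance (kb) from the annotated start or, for LGR5 and CCND1, from the left-hand end of the gene. The shMETTL3 list with olaparib has intervals at LGR5, CCND1, ABCC2 and IFIT1 where the shControl list with olaparib has none within 1000 bp, and lacks those at AXIN1 and NEIL1.

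Of the genes closed in shControl, 4 of 8 AP-1 and immediate early genes, 2 of 4 YAP and TEAD genes and 3 of 5 interferon and sensing genes were gained, beside 12.6% over all closed genes. Counts above that share were not particular to these lists. Ribosomal proteins of the mitochondrion were gained in 5 of 7 closed members and those of the cytosol in 5 of 11. FOS and FOSB, subunits of AP-1, were gained with scores of 4.86 and 3.77, and KLF4 with 6.63, while BATF3, another AP-1 family member, was lost through a 243 bp interval scored 8.76. MAFK was gained through a 78 bp interval at its right-hand end, the lowest in score of the gained members at 2.66. EGR2 and IER5 moved by -36.6 and -36.4. Of 17 YAP and TEAD genes CCN2 and AJUBA were gained (8.04 and 3.59), and 9 of 11 start intervals ranked lower, with the transcription factor TEAD1 at -30.4 (7.61 to 5.49). Of 32 interferon and nucleic acid sensing genes 27 were open in both lists, and IFI44, IFIT1 and IFIT2 were gained with scores of 9.90, 9.35 and 7.75. All of these 3 starts were open in the merged untreated shControl list and closed in untreated shMETTL3. IFIT3, of the same family, was open in both lists, but the 327 bp shControl interval at 1 of its promoters, scored 7.51, was lost. Of 25 start intervals 21 ranked lower, with ISG15 at -23.8 and BST2 at -23.2.

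Of 11 genes of drug efflux and oxidative response 8 were open in both lists. ABCC2, an efflux transporter, was gained with the highest score of any gained list member, 13.6 (chr10:99782502-99782721, the 78.5th percentile of its list). NFE2L2, which encodes NRF2, ranked 44.9 points lower (10.9 to 8.51), while its inhibitor KEAP1 ranked 23.9 higher (7.70 to 12.8). SLFN11, whose loss accompanies resistance to PARP inhibitors, had no start interval in either list. Of markers of other cell types VIM, LYZ, CD3E and SNAP25 were gained, the last pair at the right-hand end of the gene. The gained were 1 of 14 closed mesenchymal, 2 of 12 leukocyte and 1 of 9 neuronal markers, beside 12.6% over all closed genes. COL1A1 was lost, 1 of 6 open mesenchymal markers, beside 1.37% over all open genes. Among 20 housekeeping genes 18 were open in both lists, HPRT1 was gained with 7.14, and rank changes ran from -40.2 (GUSB) to 27.6 (SDHA), so that moves of this size also occurred in genes chosen as stable.

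More intervals lay around many genes in shMETTL3. When each interval was assigned to the nearest start or end within 50000 bp, 7946 genes had more intervals in shMETTL3, 669 fewer and 6370 the same number above 0. The shMETTL3 list is the longer, with 35640 intervals so assigned against 23604 in shControl. These counts were not repeated with lists of equal length. PLEKHG1, a guanine nucleotide exchange factor, had 5 in shControl and 16 in shMETTL3, where untreated shControl had 11 in the scored list. FOXP1, a forkhead transcription factor, had 5 and 14, against 4 in the scored untreated list, and PDE4D, a cAMP phosphodiesterase, 5 and 14, against 10. ANK3, IL20RA, PRKAG2, S100A10, SCHIP1, ABLIM1 and ANKRD29 gained 7 or 8 each. The largest decrease was at STS, steroid sulfatase, with 5 and 2, and 20 genes had at least 2 fewer, ADK and ANGPTL4 among them.

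In RKO the same comparison gave a kept share of 89.5% and a gained share of 33.1%. At gene starts the RKO gained share was 16.0%, and in gene bodies and between genes 43.5% and 43.7%. Intervals gained in LOVO overlapped intervals gained in RKO in 1787 cases, 8.58% of the LOVO and 15.2% of the RKO set. Of the LOVO gained intervals that were closed in RKO shControl with olaparib, 10.8% were open in RKO shMETTL3 with olaparib, and the share was 10.5% for LOVO intervals shared by both LOVO lists. Of the genes, 158 were gained in both lines (13.6% of 1164 in LOVO, 21.9% of 722 in RKO), including the list members CCND1, LGR5, FMR1, FANCM, AJUBA, MAFK and SNAP25. A further 37 LOVO gained genes were lost in RKO, CCN2 and HPRT1 among them. The 6 genes lost in both were CARD10, CEACAM19, CRLS1, IRGM, SERTAD4 and SUZ12, that is 4.05% of the LOVO and 3.64% of the RKO losses. Over all 20037 genes 722 were gained and 165 lost in RKO. Of the LOVO gained genes 45.7% were open in RKO shControl with olaparib, so they could not be gained there. Of the LOVO lost genes 46.6% were open there, and only these could be lost in RKO. The lines were not tested against each other, nor were these overlaps tested against that background.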

How the data were processed

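ATAC-seq libraries were made with a VAHTS Hyperactive kit, per the labels' protocols. The submitters' processing notes list hg38, DiffBind 3.0.15, MACS2 2.2.7.1, Bowtie2 2.4.2 and Trim Galore 0.6.6, without saying what each was used for. Read shifting, filtering and the joining of a group's samples into 1 list are not described in the labels or files. The authors deposited 1 interval list per group (2 for untreated shControl), and the score deposited with an interval has no stated definition. In both olaparib lists the peak names are those of replicate 1, and the numbers in them run up to 48841 and 74361, past the number of intervals. Merged lists hold intervals only.

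Intervals were compared by an overlap of at least 1 bp in Python 3.11.15 with numpy 2.4.6, pandas 2.3.3 and scipy 1.17.1, and the overlap code was tested on simulated data. Genes and promoters came from RefSeq (GRCh38.p14). Of 20037 protein-coding genes 15842 had starts with a strand, and for the other 4195 both ends were used, with windows of 1000 bp either side. A gene's rank change is that of its highest-scoring uniquely paired shControl interval in the window, and 20 percentile points was the threshold counted. The pair of scores given for a gene is the highest in its window in each list. All 541 list symbols matched. Shares carry 95% exact (Clopper-Pearson) intervals for counting error only, and depth is unknown. Named genes were METTL3, the 10 highest-scoring gained and lost intervals, the 10 largest rank rises and falls with at least 200 bp in both lists, the 10 largest changes in assigned intervals, list members lost, and members gained up to 4 per subgroup. List members with large rank changes were named after their values were seen, as were the promoters shown other than that of SCEL, the 1 of the 5 highest-scoring gained intervals at gene starts that overlaps its promoter. Members and lists were chosen with earlier results of these data known. No p-value was computed, since each group has 1 list. Overlap rules, score and width limits, gene windows and score scales were varied.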

Additional observations from a re-analysis of the deposited data

How the results depend on the processing

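The overlap, score and width settings moved the shares beyond their counting intervals, except for merging intervals within 100 bp, which left both unchanged. The kept share was 88.8% when 50% of the interval had to be covered, 94.3% when a gap of up to 500 bp counted as shared, 90.4% in the upper 50% of each list by score, 74.9% with both lists cut to the same number and 91.7% without intervals under 150 bp. The gained share under these settings was 44.5%, 37.8%, 42.8%, 24.3% and 34.7%. Lost genes numbered 143 to 160 and gained genes 1156 to 1267 over windows of 500 and 2500 bp and either end of the gene. Only among the upper 50% by score (445 lost, 1736 gained) and with both lists cut to the same number (1638 lost, 355 gained) did the lost count change by over 1.5 times. Of list members 88 were lost and 9 gained with the lists cut to the same number, and 17 and 56 in the upper 50%. With only genes whose strand is known, an alternative chosen after seeing the data, 113 genes were lost and 889 gained, with 3 and 19 list members. The median rank change at gene starts minus that elsewhere was -4.07 points, and -4.06 with the best-scoring partner and -3.36 for intervals of 200 bp or more in both lists. On the centred log2 scale of the scores that difference was -0.09. No paired analysis was possible because each group has 1 list and no values per sample, and leaving out a replicate could not be run for the same reason. Unknown depth limits every count of lost and gained intervals.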

Other observations

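Gene families outside the lists were counted after their values were seen, so their counts are descriptions. Of the genes closed in shControl 12.6% were gained. Ribosomal proteins of the mitochondrion were gained in 5 of 7 closed members (MRPL12, MRPL13, MRPL23, MRPS6 and MRPS7), those of the cytosol in 5 of 11 (RPL10, RPL29, RPL32, RPL38 and RPS23) and proteasome subunits in 2 of 4 (PSMB4 and PSMB7). Of the ribosomal genes open in shControl, 75 in the cytosolic and 70 in the mitochondrial set, MRPL22 was the 1 lost. Histone genes, most of which lie in clusters and resemble each other in sequence, were gained in 8 of 31 closed members. HOX genes were gained in 4 of 22 (HOXA9, HOXA11, HOXB6 and HOXB7), and the 15 with a rank change had a median of -17.0, against -3.81 over all genes. Olfactory receptors, which are closed in most tissues, were gained in 4 of 390 closed members, or 1.03%. Zinc finger genes were gained in 28 of 207, or 13.5%, and solute carriers in 31 of 191, or 16.2%. Among interleukins and chemokines CCL5, CXCL8, IL1B and IL6 were gained, 4 of 7 such genes out of 67 closed, and IL7R was lost. By chromosome, the gained share of shMETTL3 intervals ran from 33.2% on chromosome 19 to 44.7% on chromosome 4.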
